A study of Mus musculus with 6 samples.

Results

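The mitochondrial protein import machinery was examined in the livers of male mice aged 8 weeks whose mothers had received inulin, a fermentable plant fibre (HFD-inulin, 3 arrays), or a high-fat diet (HFD, 3 arrays). The HFD-inulin title also names the high-fat diet, so the comparison is not read as inulin in place of that diet. The labels give neither the dose nor the period of treatment of the mothers, and they do not say which mice were littermates, so p-values measure only the spread between these samples. Members were chosen by gene symbol: every Timm or Tomm gene whose symbol goes on with a digit, and 14 further genes of the sorting, motor, relay and processing machinery. Of the 38 genes of this kind that the platform annotation listed, 34 had a probe set named for that gene alone, among 30702 genes named on the array. Timm10b, Tomm5, Tomm6 and Dnajc19 shared their probe set with another gene and are not given values, and Immp2l is not analysed here. Where a gene had several probe sets, the brightest by its average over all 6 arrays was kept. Levels are the deposited log2 signals, and differences are HFD-inulin minus HFD on that scale.

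Nearly all mitochondrial proteins are made in the cytosol and must cross the outer membrane through the TOM complex. From there, precursors with a presequence pass the inner membrane through TIM23 and are pulled in by the PAM motor, carrier proteins are inserted by TIM22 with the help of small TIM chaperones, and barrel proteins of the outer membrane are placed by the SAM complex. The disulfide relay (MIA) traps small cysteine-rich proteins between the membranes, and peptidases remove presequences once a protein has arrived. Hepatocytes are rich in mitochondria, which carry out beta-oxidation, part of the urea cycle and ketone body synthesis in liver.

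The 6 arrays fell into 2 parts that cross the groups. The leading principal component (52.6% of the variance) separated HFD-inulin 3, HFD 2 and HFD 3, called high-Y arrays here, from the low-Y arrays, which are HFD-inulin 1, HFD-inulin 2 and HFD 1. The names come from 245 probe sets numbered on chromosome Y that share their values with another probe set. Their mean log2 signal was 1.60 to 1.91 in the low-Y HFD-inulin arrays and 3.15 in HFD-inulin 3, against 1.34 in HFD 1 and 2.99 to 3.24 in HFD 2 and 3. The cause of the split is not known. Hepatocyte markers were bright, with 9 of 10 measured at mean log2 signals of 8.03 to 11.5. Their summed linear signal was 12079 to 12846 in HFD-inulin livers and 13074 to 13938 in HFD livers, with no overlap, and 2 of the 9 had a higher mean in HFD-inulin. The summed signal of 5 adipocyte markers was 21.2 to 73.0 in HFD-inulin and 22.0 to 36.5 in HFD livers, with 2 of the 5 under the median probe set. Of 6 neutrophil markers 2 were under it, and their sum was 15.3 to 21.5 in HFD-inulin and 15.2 to 16.3 in HFD livers. Of the 10 marker lists, 3 had summed signals that did not overlap, all lower in HFD-inulin: the hepatocyte list, the lymphocyte list at 14.8 to 15.7 in HFD-inulin and 15.8 to 17.2 in HFD livers, and the skeletal muscle list at 32.4 to 33.5 in HFD-inulin and 33.7 to 35.1 in HFD livers. Of the 5 lymphocyte markers measured 0 had a higher mean in HFD-inulin, and 2 of the 6 muscle markers did. The part of these cell types in the results was not tested. In whole liver, fewer cells of a type and less RNA per cell cannot be told apart.

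Import genes were mostly higher in the HFD-inulin livers, by small amounts. Of the 34 genes, 31 had a higher mean in HFD-inulin and 3 a lower one (Timm8a2, Timm44 and Tomm40l), with a median log2 difference of 0.23. Over all named genes 46.9% had a higher mean, and the median difference was -0.01. No import gene passed the test: limma gave each an adjusted p of 0.902 or more over all probe sets, of which 0.0% were called. Without adjustment 13 import genes had p under 0.05, all with a higher mean in HFD-inulin. The background for that count was 3.42% of named genes higher and 2.22% lower. In 15 genes every HFD-inulin array lay above every HFD array, where 5.41% of named genes did so, and 12 genes had both marks. In no import gene did all HFD-inulin arrays lie below all HFD arrays, as 6.05% of named genes did.

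Bright genes as a whole also tended to be higher, and most import genes are bright. Of 4960 named genes with a mean log2 signal of 4 to 7, a range chosen after the values were seen, 63.9% had a higher mean in HFD-inulin, 10.3% had p under 0.05 with a higher mean and 11.7% did not overlap with HFD-inulin above. Among the 24 import genes in that range the counts were 23 higher, 11 with p under 0.05 and 12 without overlap. Their median difference was 0.26, and that of all genes in the range was 0.06. After quantile normalization, which gives every array the same distribution, the median over the 34 import genes was 0.15. It was 0.01 over all named genes and 0.03 over all genes in the range of 4 to 7. Of the 34 import genes 31 still had a higher mean and 8 did not overlap. The shares of all named genes after this normalization are not given for these counts.

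**Figure D1:**
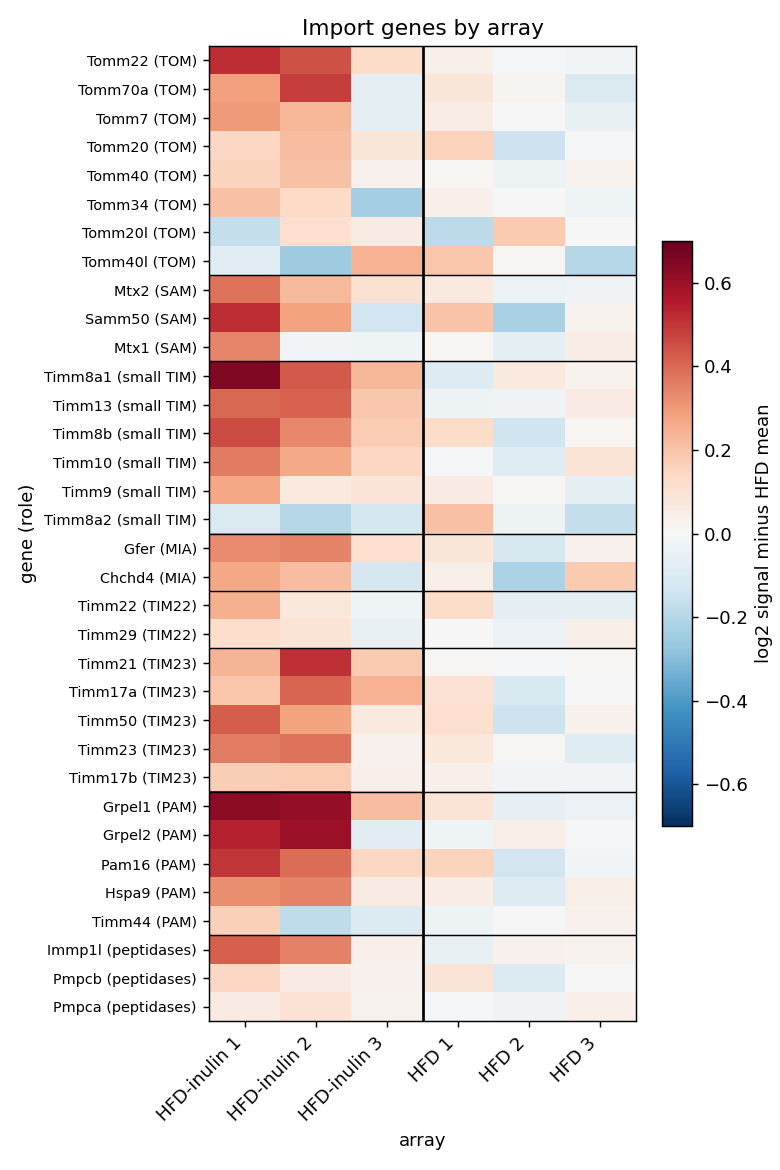
Heat map of the 34 import genes (rows, grouped by role) in the 6 arrays (columns, HFD-inulin left of HFD), coloured by log2 signal minus the gene's HFD mean. HFD-inulin 1 and 2 are above the HFD mean in 31 and 30 genes and HFD-inulin 3 in 23, and Timm8a1 and Grpel1 have the darkest cells.

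The size of the difference depended on the array. Relative to the HFD mean, the average of the 34 genes was 0.29, 0.24 and 0.05 for HFD-inulin 1, 2 and 3, against 0.05, -0.05 and -0.01 for HFD 1, 2 and 3. HFD-inulin 3 was thus level with HFD 1 on this measure, and the groups overlapped. HFD-inulin 3 was the lowest of the HFD-inulin arrays in 28 genes, and it was below HFD 1 in 16. HFD-inulin 1 and 2 both lay above every HFD array in 26 genes. That count leaves out HFD-inulin 3 and is easier to reach than a lack of overlap over all arrays. The share of all named genes is not given for it, so it is not read as particular to import genes. Among the low-Y arrays, which set HFD-inulin 1 and 2 against HFD 1, 32 genes were higher with a median difference of 0.21. Among the high-Y arrays, which set HFD-inulin 3 against HFD 2 and 3, 23 were higher with a median of 0.07. All named genes had medians of -0.02 and 0.00 in the low-Y and the high-Y arrays. In 22 genes the difference was positive in both parts, and in 27 it was larger in the low-Y arrays. The 13 genes with p under 0.05 were higher by 0.20 to 0.63 in the low-Y and by 0.01 to 0.30 in the high-Y arrays. These genes were picked on the same 6 arrays. In 12 of the 13 the groups did not overlap, which by itself makes the difference positive in any part. The shared sign is therefore no further support. The difference was larger in the low-Y arrays in 12 of the 13. The number of import genes with p under 0.05 was 6, 8 and 21 without HFD-inulin 1, 2 and 3 in turn. It was 13, 5 and 8 without HFD 1, 2 and 3 in turn. The share of all named genes in each of these fits is not given, so these counts are not read as particular to import genes.

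**Figure D2:**
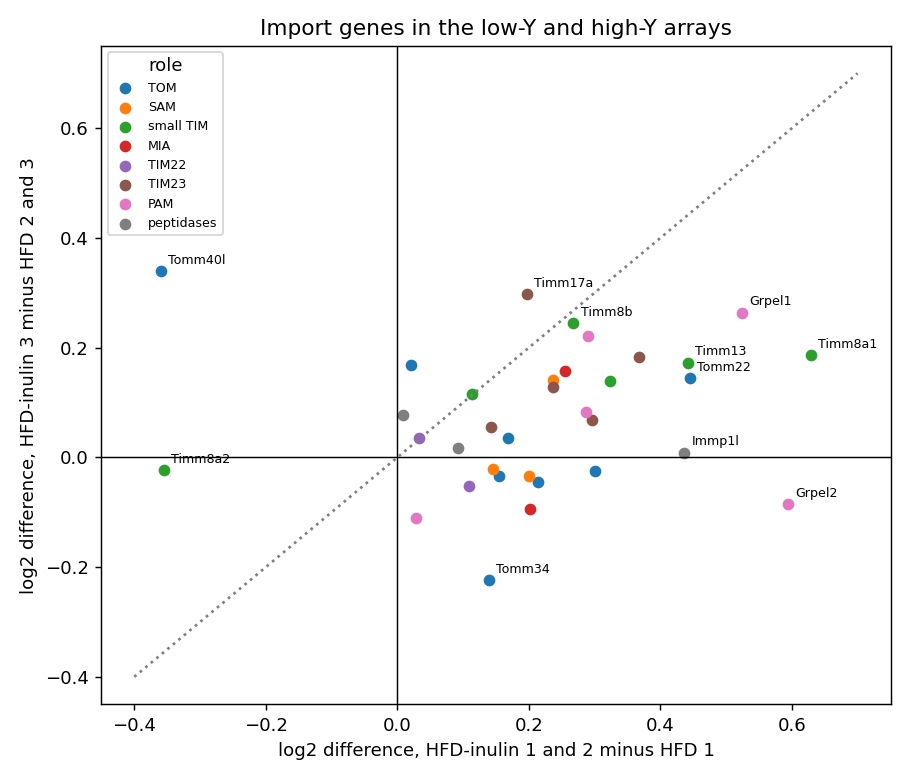
Log2 difference of each import gene in the low-Y arrays (horizontal axis, HFD-inulin 1 and 2 minus HFD 1) and in the high-Y arrays (vertical axis, HFD-inulin 3 minus HFD 2 and 3), coloured by role, with equality dotted. Of the 34 points 27 lie below the dotted line, and Tomm40l is at -0.36 in the low-Y and 0.34 in the high-Y arrays.

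Promoters were read for the members with a RefSeq entry (assembly GRCm38.p6), 29 of the 34, over the 250 bases before the start. Motifs of NRF1 (its palindromic core) and of GABPA (CCGGAAG), transcription factors known for driving nuclear genes of mitochondria, were searched on both strands. The NRF1 core was found in 0 of the 29, and in 1.21% of the promoters of 17492 protein-coding genes. An exact match that rare is seldom met in 29 promoters, so the 0 does not show that NRF1 sites are absent. The GABPA letters were found in 13 of the 29, or 44.8%, and in 10.2% of the protein-coding promoters. Of the 13 genes with these letters 5 had groups that did not overlap, and of the 16 without them 8 did. Of the 13, only the promoters of those 5 are printed, a choice made by the values of the genes. The genes with these letters whose groups overlapped had differences from -0.14 (Timm8a2) to 0.26 (Timm23). Matched letters are in capitals, the last base printed is the one before the start, and all 5 printed promoters lie on the plus strand. A match is a description of the letters and no evidence of binding.
Tomm22, chr15:79670748-79670867: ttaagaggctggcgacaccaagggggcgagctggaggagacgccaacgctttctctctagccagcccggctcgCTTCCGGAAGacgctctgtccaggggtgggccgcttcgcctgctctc
Timm8b, chr9:50603781-50603900: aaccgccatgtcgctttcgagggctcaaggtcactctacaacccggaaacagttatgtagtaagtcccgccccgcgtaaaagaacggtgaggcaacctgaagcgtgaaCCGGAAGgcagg
Timm10, chr2:84826901-84827020: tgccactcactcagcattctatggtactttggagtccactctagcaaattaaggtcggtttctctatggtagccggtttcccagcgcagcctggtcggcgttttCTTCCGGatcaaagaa
Mtx2, chr2:74825692-74825811: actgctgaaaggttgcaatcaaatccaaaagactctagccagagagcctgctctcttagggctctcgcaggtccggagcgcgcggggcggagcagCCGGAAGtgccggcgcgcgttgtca
Grpel1, chr5:36464935-36465184: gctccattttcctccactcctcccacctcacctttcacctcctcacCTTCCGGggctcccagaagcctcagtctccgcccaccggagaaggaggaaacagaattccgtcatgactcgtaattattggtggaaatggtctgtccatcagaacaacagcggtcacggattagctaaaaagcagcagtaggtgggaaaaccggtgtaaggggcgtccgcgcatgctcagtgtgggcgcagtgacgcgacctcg
In Tomm22 the 2 matches, 1 on each strand, overlap in a palindrome that begins 47 bases before the start. The match begins 12 bases before the start in Timm8b, 16 in Timm10, 25 in Mtx2 and 204 in Grpel1.

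At the outer membrane gate, 7 of the 8 genes grouped here by a Tomm symbol had a higher mean in HFD-inulin, with a median difference of 0.14. The 7 include the dim Tomm20l, whose difference was 0.00 (SE 0.12). Tomm22, the receptor that organises the complex and whose promoter holds the palindrome, had log2 signals of 6.31, 6.24 and 5.92 in HFD-inulin livers and 5.83, 5.77 and 5.77 in HFD livers, in the order of arrays 1 to 3 as throughout. Its groups did not overlap, and the difference was 0.36 (SE 0.11, unadjusted p = 0.014 in limma), 0.45 in the low-Y and 0.15 in the high-Y arrays. Tomm40, the channel itself, also did not overlap, at 5.69, 5.75 and 5.57 in HFD-inulin and 5.55, 5.50 and 5.56 in HFD livers. The gap between the groups was within 0.01, and the difference of 0.13 had an unadjusted limma p of 0.109. Tomm70a, a receptor for carrier precursors delivered by chaperones, measured 6.33, 6.53 and 5.97 in HFD-inulin and 6.13, 6.06 and 5.94 in HFD livers. Its groups overlapped because HFD-inulin 3 lay below HFD 1 and HFD 2. The presequence receptor gene Tomm20 and the small subunit gene Tomm7 each differed by 0.15, and Tomm34, a cytosolic cochaperone, by 0.03. Tomm40l, a homologue of the channel, measured 3.91, 3.74 and 4.23 in HFD-inulin and 4.18, 3.995 and 3.79 in HFD livers. Its difference was -0.03, with opposite signs in the low-Y and high-Y arrays.

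All 3 SAM genes had higher means. Mtx2, a metaxin of the sorting complex, measured 5.23, 5.07 and 4.95 in HFD-inulin and 4.91, 4.80 and 4.82 in HFD livers. Its groups did not overlap, and the difference was 0.24 (SE 0.09, unadjusted p = 0.030 in limma). Samm50, the barrel that inserts other barrel proteins, measured 6.89, 6.66 and 6.24 in HFD-inulin and 6.57, 6.15 and 6.40 in HFD livers, so that its groups overlapped. The difference of 0.22 had an SE of 0.19, and it was -0.03 within the high-Y arrays. Mtx1, the other metaxin, differed by 0.10 in the probe set used and by 0.02 in its second probe set.

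The small TIM chaperones, which shield hydrophobic carrier precursors between the membranes, gave 5 of the 15 genes without overlap. Of 6 measured, 5 had higher means, and the median difference was 0.29. Timm8a1, whose human counterpart is mutated in a deafness and dystonia syndrome, measured 6.57, 6.35 and 6.15 in HFD-inulin and 5.83, 5.99 and 5.94 in HFD livers. The difference was 0.44 (SE 0.11, unadjusted p = 0.0073 in limma), or 0.63 within the low-Y and 0.19 within the high-Y arrays. A second Timm8a1 probe set, numbered on chromosome 10 while the gene lies on X, gave 0.63, and its groups did not overlap either. Timm13, the partner of Timm8 proteins, measured 4.61, 4.62 and 4.39 in HFD-inulin and 4.17, 4.18 and 4.26 in HFD livers. Its unadjusted p in limma was the smallest of the 34, 0.0053, for a difference of 0.34 (SE 0.08).

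Timm8b, Timm10 and Timm9 completed the chaperones whose groups did not overlap. Timm8b, shown above with its match next to the start, measured 4.53, 4.40 and 4.25 in HFD-inulin and 4.20, 3.92 and 4.08 in HFD livers, a difference of 0.32 (unadjusted p = 0.018 in limma). Timm10 measured 3.88, 3.78 and 3.65 in HFD-inulin and 3.50, 3.42 and 3.60 in HFD livers, a difference of 0.26 (unadjusted p = 0.020 in limma). Its partner Timm9 measured 3.58, 3.38 and 3.40 in HFD-inulin and 3.36, 3.32 and 3.25 in HFD livers, a difference of 0.14. The lowest HFD-inulin value of Timm9 exceeded the highest HFD value by 0.01, and its unadjusted limma p was 0.120. Timm8a2, a paralogue of Timm8a1, was low on the array at 1.96 ± 0.05 in HFD-inulin and 2.10 ± 0.19 in HFD livers (SD, n = 3 each). The groups overlapped, and the difference was -0.14, the lowest of the 34 genes.

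In the disulfide relay, Gfer and Chchd4 both had higher means. Gfer, the sulfhydryl oxidase that reoxidises the relay and is also known as augmenter of liver regeneration, measured 4.65, 4.66 and 4.43 in HFD-inulin and 4.40, 4.21 and 4.35 in HFD livers. Its groups did not overlap, with a difference of 0.26 (SE 0.09, unadjusted p = 0.025 in limma). Chchd4, the receptor oxidoreductase of the relay, measured 3.04, 2.98 and 2.65 in HFD-inulin and 2.81, 2.54 and 2.95 in HFD livers. Its groups overlapped, and the difference of 0.12 had an SE of 0.14. The TIM22 genes differed little. Timm22, the carrier channel, measured 3.17, 3.002 and 2.90 in HFD-inulin and 3.05, 2.87 and 2.86 in HFD livers, and Timm29, a subunit known from human cells, had 3.64, 3.62 and 3.47 in HFD-inulin and 3.52, 3.48 and 3.56 in HFD livers. Their differences were 0.10 (limma 95% interval -0.13 to 0.33) and 0.06 (-0.12 to 0.23).

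All 5 TIM23 genes had higher means, with a median difference of 0.26, and each was also higher within both parts of the arrays. Timm21, which links the inner and outer membrane translocases, measured 4.52, 4.80 and 4.47 in HFD-inulin and 4.29, 4.27 and 4.29 in HFD livers. The groups stood apart, with a difference of 0.31 (SE 0.10, unadjusted p = 0.016 in limma). Timm17a, a channel subunit with a short-lived protein, measured 5.37, 5.59 and 5.42 in HFD-inulin and 5.28, 5.07 and 5.18 in HFD livers. The difference was 0.28 (unadjusted p = 0.016 in limma), and it was larger in the high-Y arrays (0.30) than in the low-Y arrays (0.20). Timm17b, its paralogue, measured 4.82, 4.82 and 4.68 in HFD-inulin and 4.68, 4.63 and 4.63 in HFD livers, with a difference of 0.13 and a gap between the groups of under 0.01. Timm23, the central subunit of the complex, measured 6.65, 6.67 and 6.32 in HFD-inulin and 6.37, 6.30 and 6.21 in HFD livers. HFD-inulin 3 lay below HFD 1, so its groups overlapped, and the difference was 0.26 (unadjusted p = 0.054 in limma). That probe set is numbered on chromosome 10 while the gene lies on 14, and the probe set numbered on 14 gave 0.18. Timm50, the presequence receptor of the complex, differed by 0.26 (unadjusted p = 0.059 in limma).

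The import motor holds the gene with the largest difference of the 34. Grpel1, the nucleotide exchange factor of the matrix chaperone, measured 5.57, 5.56 and 5.17 in HFD-inulin and 5.04, 4.89 and 4.91 in HFD livers. This was a 1.40-fold ratio, a difference of 0.49 (SE 0.12, unadjusted p = 0.0065 in limma), with 0.52 in the low-Y and 0.26 in the high-Y arrays. Grpel2, its paralogue, measured 5.19, 5.25 and 4.58 in HFD-inulin and 4.62, 4.70 and 4.64 in HFD livers. HFD-inulin 3 was below all HFD arrays for Grpel2, and the difference of 0.35 (unadjusted p = 0.086 in limma) was 0.59 in the low-Y and -0.09 in the high-Y arrays. Hspa9, the matrix chaperone mortalin that drives the motor, measured 7.75, 7.77 and 7.48 in HFD-inulin and 7.48, 7.33 and 7.46 in HFD livers. Its groups were apart by under 0.01, and its difference of 0.24 (unadjusted p = 0.044 in limma) was 0.11 after quantile normalization, with an unadjusted limma p of 0.226.

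Pam16, which regulates the motor's J-protein, measured 4.71, 4.59 and 4.35 in HFD-inulin and 4.36, 4.07 and 4.18 in HFD livers, a difference of 0.34 (unadjusted p = 0.024 in limma). Its groups overlapped by 0.01. This probe set is numbered on chromosome 10 while the gene lies on 16, and the probe set numbered on 16 gave 0.08. Timm44, the scaffold that docks the motor to the channel, measured 4.86, 4.52 and 4.60 in HFD-inulin and 4.66, 4.70 and 4.72 in HFD livers. Its difference was -0.04, with an SE of 0.10.

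Among the peptidases, all 3 measured had higher means and 1 had p under 0.05. Immp1l, a subunit of the inner membrane peptidase, measured 4.39, 4.33 and 4.01 in HFD-inulin and 3.92, 4.002 and 3.997 in HFD livers. Its difference of 0.27 (unadjusted p = 0.046 in limma) was 0.44 in the low-Y and 0.01 in the high-Y arrays. Pmpcb, the catalytic subunit of the matrix processing peptidase, measured 5.72, 5.63 and 5.60 in HFD-inulin and 5.66, 5.48 and 5.57 in HFD livers, and the groups overlapped. Pmpcb differed by 0.08 and its partner Pmpca by 0.06, with limma 95% intervals of -0.10 to 0.26 and -0.08 to 0.21.

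**Figure D3:**
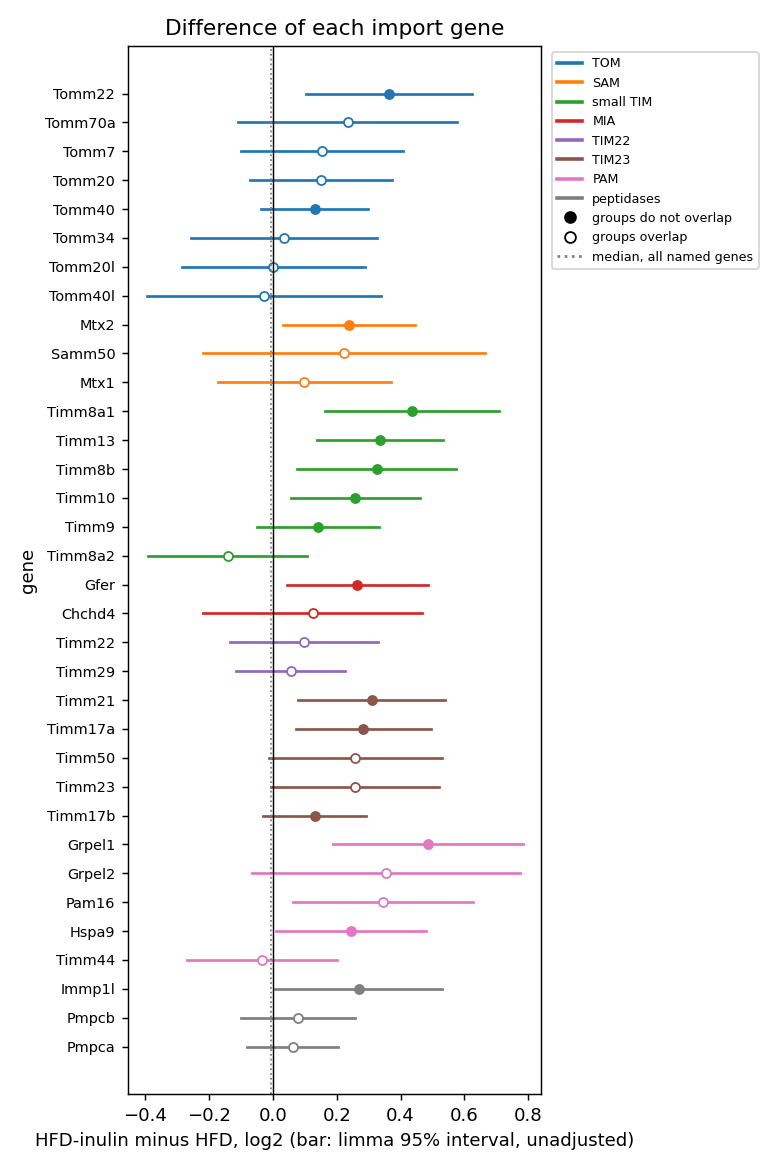
Log2 difference (HFD-inulin minus HFD, point) of each import gene with its unadjusted limma 95% interval (bar), coloured by role, filled where the groups do not overlap. The intervals of 13 genes lie above 0, and the points run from -0.14 for Timm8a2 to 0.49 for Grpel1.

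Genes that work beside the import machinery showed the same sign for the most part, and none passed the adjusted test. Of 21 other import factors 17 had higher means, with a median of 0.11. Stoml2, a scaffold of the inner membrane (0.30), and Timmdc1, an assembly factor of complex I (0.22), had p under 0.05 in limma without adjustment, and the porin gene Vdac3 (0.29, or 0.43 without HFD-inulin 3) came next. In the list of matrix folding and quality control 12 of 13 were higher, with a median of 0.12. Hspe1 (0.71), Clpp (0.39) and Hspd1 (0.55), the cochaperonin, a protease and the chaperonin, had p under 0.05 there. Hspd1 measured 8.28, 8.36 and 7.57 in HFD-inulin and 7.59, 7.42 and 7.56 in HFD livers, so that HFD-inulin 3 lay among the HFD arrays.

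Of 9 cytosolic chaperones that deliver precursors 7 were higher, with a median of 0.19. The smallest p belonged to Dnaja2 (0.32) and Stip1 (0.75), both under 0.05 without adjustment, and to Hsp90aa1 (1.03). Hsp90aa1 measured 7.82, 7.54 and 5.95 in HFD-inulin and 6.17, 6.13 and 5.94 in HFD livers. HFD-inulin 3 lay among the HFD arrays, and without it the Hsp90aa1 difference was 1.61. All 8 genes of MICOS, the complex that shapes the cristae, were higher, with a median of 0.15 and 0 with p under 0.05. In MICOS the smallest p were those of Micos13 (0.16), Chchd6 (0.26) and Immt (0.13). Regulators of mitochondrial biogenesis were mixed, with 10 of 15 higher. Atf4, a factor of the integrated stress response, differed by 0.40, and Tfb1m, a methyltransferase of mitochondrial ribosomal RNA, by 0.42. The coactivator gene Ppargc1a was lower, at 2.92, 2.63 and 3.67 in HFD-inulin and 3.64, 3.55 and 3.90 in HFD livers. Its groups overlapped, and its difference was -0.62 (SE 0.26, unadjusted p = 0.051 in limma). Gabpa and Nrf1, whose motifs were searched above, differed by 0.09 (SE 0.07) and -0.03 (SE 0.06).

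In larger families HFD-inulin 3 was likewise the lowest of the HFD-inulin arrays on average. The 75 mitochondrial ribosomal protein genes had 69 higher and 20 with p under 0.05, with a median difference of 0.16. Their mean was 0.29, 0.24 and 0.04 above HFD in HFD-inulin arrays 1 to 3, close to the import genes array by array. The 82 oxidative phosphorylation genes had 68 higher, 5 with p under 0.05 and a median of 0.12, and their mean was 0.26, 0.09 and -0.02. Cytosolic ribosomal protein genes were all higher, 39 of 39, with 22 at p under 0.05 and a median of 0.30. Their mean was 0.34, 0.48 and 0.09, highest in HFD-inulin 2. The median differences in the low-Y and the high-Y arrays were 0.15 and 0.06 for mitochondrial ribosomal protein genes, 0.10 and 0.02 for oxidative phosphorylation genes, and 0.32 and 0.12 for cytosolic ribosomal protein genes. The difference between these families and the import genes was not tested, and nothing here is particular to import.

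**Figure D4:**
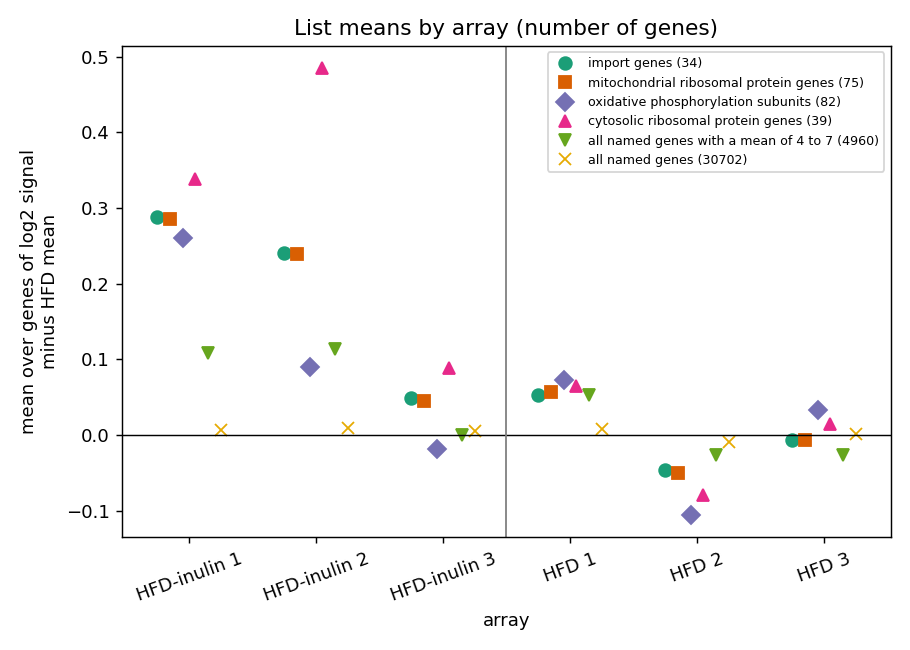
Mean over the genes of each list of the log2 signal minus the HFD mean (vertical axis) in each array (horizontal axis, HFD-inulin left of HFD), with the number of genes in brackets. Import genes are at 0.29, 0.24 and 0.05 in HFD-inulin arrays 1 to 3, and all named genes lie at 0.01 in these arrays.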

How the data were processed

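Liver total RNA of 6 mice was labelled with biotin and hybridised to 1 array each, per the labels. The values are log2 signals that the authors deposited for 65956 probe sets, for which the submitters' processing notes name Affymetrix Expression Console 1.0. The summarization and the build were not given in the sources used here, and the log base follows from the range of values. The number of arrays limits the precision. The platform annotation and RefSeq symbols gave the names: 31258 had 1 gene, 1492 had several and were left unnamed, and the others had no listed symbol. Array medians ran from 1.17 to 1.26, and every member's mean exceeded the median probe set's 1.22. Groups were compared with limma 3.58.1 (R 4.3.3; lmFit and eBayes, no filter, no covariate, two-sided) on all probe sets, with Benjamini-Hochberg adjustment over all of them and a threshold of 0.05, after testing on simulated data. Members and lists were chosen with earlier results of these data known. Array values are given for members with unadjusted p under 0.05 or without overlap and, in each role, for those with the highest mean or smallest p. Values of other members were added after they were seen. In the other lists the 3 genes with the smallest p are named, with Gabpa and Nrf1 for their motifs. The alternatives are other variance priors, filters, scalings, weights, blocks, probe set choices and leaving out each array.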

Additional observations from a re-analysis of the deposited data

How the results depend on the processing

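No import gene passed the adjusted threshold under any of the 18 alternatives. Over all probe sets limma called 0 in each alternative fit except with a trended and robust prior, which called 4. The count of import genes with a higher mean stayed between 23 and 32. Quantile normalization left 8 genes without overlap and median centring 9, all among the 15, and 9 genes kept p under 0.05 after quantile normalization. With the split of the arrays as a block 11 of the 13 genes with p under 0.05 kept it, and the median difference was 0.13. When each gene was read by a probe set numbered on its own chromosome, the median difference was 0.16 and 12 genes had p under 0.05. Within the high-Y arrays the median was 0.0728 with 3 genes at p under 0.05, and 27 genes did not overlap in either direction. Within the low-Y arrays these counts were 7 and 29. Groups of 1 and 2 arrays part easily, and the lone array is assumed to vary like the others. Several genes with a higher mean in HFD-inulin had a negative difference within the high-Y arrays. The difference there was -0.0332 for Samm50, -0.0523 for Timm29 and -0.0253 for Tomm70a. It was -0.22 for Tomm34, -0.09 for Chchd4, -0.09 for Grpel2, -0.04 for Tomm7, -0.03 for Tomm20l and -0.02 for Mtx1. The cause was not tested. Leaving out 1 array at a time gave 5 to 21 genes with p under 0.05 and 15 to 26 without overlap. The shares of all named genes under these alternatives are not given, so none of these counts is read as particular to import genes. Deviations from the group means correlated at 0.26, -0.28 and 0.40 for numbers 1, 2 and 3. Arrays of unlike number correlated at -0.54 (HFD-inulin 3 and HFD 1) to 0.42 (HFD-inulin 3 and HFD 2). These values follow the split of the arrays, so they cannot tell whether the numbers pair the samples, and the labels do not say. With the replicate number as a block 12 genes had p under 0.05, 11 of them among the 13. Small differences between dim genes are limited by signal over background, for which no detection calls were used.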

Other observations

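Paralogues of 1 subunit could be set side by side for 5 pairs. In each pair the paralogue given first had the larger difference, with 0.28 for Timm17a and 0.13 for Timm17b, 0.44 for Timm8a1 and -0.14 for Timm8a2, and 0.49 for Grpel1 and 0.35 for Grpel2. The remaining pairs had 0.15 for Tomm20 and 0.00 for Tomm20l, and 0.13 for Tomm40 and -0.03 for Tomm40l. Within the low-Y arrays Grpel2 (0.59) exceeded Grpel1 (0.52), and Tomm20l (0.16) exceeded Tomm20 (0.02). Within the high-Y arrays Tomm40l (0.34) exceeded Tomm40 (0.04), and elsewhere the first was larger. Only for Timm8a1 minus Timm8a2 did every HFD-inulin array lie above every HFD array. Timm8a2 and Tomm20l were dim, with mean log2 signals of 1.96 and 1.83 in HFD-inulin livers and 2.10 and 1.83 in HFD livers. The symbols of a pair stand in alphabetical order, and the differences between paralogues were not tested.

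The probe sets of a gene did not always give the same size. Pam16 had 0.34 on the probe set numbered on chromosome 10 and 0.08 on that of its own chromosome, and the log2 signals of the second were 3.90, 3.92 and 3.75 in HFD-inulin and 3.85, 3.72 and 3.74 in HFD livers. For Timm8a1 the probe set numbered elsewhere was also the one with the larger difference. Whether these probe sets read a related sequence was not tested.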
